A study of Mus musculus with 36 samples.

Results

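The genes described here are 41 interferon-stimulated antiviral genes, a pathway list chosen with earlier results of these data known. Shares of the list set beside those of all genes are descriptive for that reason. The list holds sensors of viral RNA and the enzymes they feed, the IFIT, OAS, MX and GBP families, the ISG15 system, and genes that carry or restrain interferon signalling. They are 41 of the 27179 genes in the deposited count table, and 40 of them had enough reads to be tested. Ifi44 was not tested and is given by its counts alone.

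The study measured RNA in 3 mouse B lymphoma lines of the Em-myc strain (AH47A, 287 and 621), in which a Myc transgene under an immunoglobulin heavy-chain enhancer drives lymphoma. Each line carried 1 of 6 constructs, namely a negative control (pMIG in the sample descriptions) or a mutant form of the tumour suppressor TRP53 labelled G280, I192S, R246Q, R270H or V170M. All 3 lines and all 6 constructs were sampled untreated and after 12 h with 5 µM nutlin-3a, which occupies the p53 pocket of MDM2, the ligase that marks p53 for destruction, so that wild-type p53 accumulates. Treated cells also received 25 µM QVD-OPH, a caspase inhibitor, and the sources used here do not state whether untreated cells did, so that nutlin-3a and the inhibitor cannot be told apart. "Nutlin" below means both agents. The design made 36 libraries in 12 groups of 3, with 1 library per line, construct and treatment, and the labels name no repeat culture of a line. Within a line, the 6 constructs therefore stood in as replicates, and p-values measure the spread between these libraries.

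Type I interferon binds a receptor of IFNAR1 and IFNAR2 chains, and the kinases behind it activate STAT2, which with IRF9 is part of the factor ISGF3. ISGF3 binds a short DNA element in the promoters of target genes, the interferon-stimulated response element, whose core is a repeated GAAA. The products sense, bind, modify or degrade viral RNA, block entry and budding, or tune the response, and cells without interferon usually keep most of them near silence.

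Promoter sequences of 8 members are printed to show this element where it is present and where it is not. They are the 250 bases before a start listed in the RefSeq promoter reference (build GRCm38.p6), written in the direction of transcription. Capitals mark each match, on either strand, to the core GAAA, any 2 bases and GAAA again, overlapping matches joined. The 5 members with a match and the 2 without (Trim25 and Ifit2) that had the highest mean treated count are shown. Of the former, Ifit1 and Rsad2 were near silent in untreated cells, and Bst2, Trim30a and Stat2 were already expressed there. Isg15 was added after its values had been seen. The windows are chr19:34640639-34640888 on the plus strand for Ifit1, chr12:26456453-26456702 on the minus strand for Rsad2 and chr4:156200819-156201068 on the minus strand for Isg15. They are chr8:71537473-71537722 on the minus strand for Bst2, chr7:104465194-104465443 on the minus strand for Trim30a and chr10:128270248-128270497 on the plus strand for Stat2. For Trim25 the window is chr11:88999153-88999402 and for Ifit2 chr19:34550444-34550693, both on the plus strand. The Ifit2 window overlaps the gene itself, whose RefSeq start is 34550550. Ifit2 and Trim30a each have another listed window, not printed, that held no match.
Ifit1: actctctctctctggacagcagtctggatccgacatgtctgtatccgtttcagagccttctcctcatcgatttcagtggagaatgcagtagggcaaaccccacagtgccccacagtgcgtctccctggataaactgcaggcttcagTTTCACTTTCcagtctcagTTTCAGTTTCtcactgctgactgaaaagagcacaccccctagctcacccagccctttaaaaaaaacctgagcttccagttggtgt
Rsad2: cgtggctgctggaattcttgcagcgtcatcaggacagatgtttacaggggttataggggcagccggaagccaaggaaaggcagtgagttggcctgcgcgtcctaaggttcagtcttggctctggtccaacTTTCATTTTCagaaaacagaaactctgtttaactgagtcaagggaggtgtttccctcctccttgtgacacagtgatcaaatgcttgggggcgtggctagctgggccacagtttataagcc
Bst2: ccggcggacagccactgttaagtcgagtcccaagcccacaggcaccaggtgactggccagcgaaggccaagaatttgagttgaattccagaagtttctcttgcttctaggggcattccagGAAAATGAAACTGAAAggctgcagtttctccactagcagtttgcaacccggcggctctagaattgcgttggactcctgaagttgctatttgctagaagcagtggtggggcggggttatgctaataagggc
Trim30a: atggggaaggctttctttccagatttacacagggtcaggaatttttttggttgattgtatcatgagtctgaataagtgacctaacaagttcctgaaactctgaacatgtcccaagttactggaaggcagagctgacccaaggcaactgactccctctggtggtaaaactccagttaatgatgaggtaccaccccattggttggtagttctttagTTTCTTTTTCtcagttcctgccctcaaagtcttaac
Stat2: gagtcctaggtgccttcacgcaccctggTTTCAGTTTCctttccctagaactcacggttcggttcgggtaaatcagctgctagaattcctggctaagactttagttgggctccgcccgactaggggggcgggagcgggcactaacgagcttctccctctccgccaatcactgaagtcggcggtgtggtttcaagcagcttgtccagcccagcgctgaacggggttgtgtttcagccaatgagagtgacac
Isg15: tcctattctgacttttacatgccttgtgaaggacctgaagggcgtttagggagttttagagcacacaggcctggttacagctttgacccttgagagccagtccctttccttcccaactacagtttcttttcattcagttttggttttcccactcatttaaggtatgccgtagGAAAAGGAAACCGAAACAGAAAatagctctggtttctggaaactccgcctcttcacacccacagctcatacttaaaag
Trim25: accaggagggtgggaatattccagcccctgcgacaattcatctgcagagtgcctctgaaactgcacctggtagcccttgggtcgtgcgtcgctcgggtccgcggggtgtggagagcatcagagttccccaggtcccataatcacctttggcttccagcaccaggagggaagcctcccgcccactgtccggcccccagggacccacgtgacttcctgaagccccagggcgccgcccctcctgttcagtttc
Ifit2: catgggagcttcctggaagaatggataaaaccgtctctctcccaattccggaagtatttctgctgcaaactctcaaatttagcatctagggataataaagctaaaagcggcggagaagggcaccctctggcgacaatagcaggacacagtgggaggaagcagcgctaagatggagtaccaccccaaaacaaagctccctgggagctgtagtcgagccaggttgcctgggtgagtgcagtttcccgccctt

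The matches began 104 and 85 bases before the start of Ifit1, 120 before that of Rsad2, and 78, 72 and 66 before that of Isg15. They began 130 and 124 bases before the start of Bst2, 36 before that of Trim30a and 222 before that of Stat2. Of the 32 members with a promoter in the reference table, 13 (40.6%) held the element in at least 1 listed window, against 3.46% of all genes with a promoter entry and 3.22% of the tested genes. A kappaB element, GGGA, any base and TTTCC on either strand, and the p53 response element (a pair of its consensus half-sites close together) were found in 0 of the 32 members, but these were rare in all genes with a promoter entry, at 0.414% for kappaB and 0.0666% for p53. A match describes these letters only. The 13 tested members with the element had median log2 responses to nutlin of 3.92 in AH47A, 8.31 in 287 and 2.54 in 621, and the 18 tested members without it had 1.16, 4.32 and 1.69. Both sets held members at either end of the range. Stat2 has the element and had the lowest log2 response of the 40 in all 3 lines, while Oasl1, which has none in its window, responded with log2 values of 7.87, 10.62 and 8.47.

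Libraries held 5404113 to 10718302 counts. The p53 targets used as a check of the treatment rose in every line, 20, 19 and 20 of 20 in AH47A, 287 and 621. Their median log2 responses were 2.87, 4.06 and 2.66. Their response in 287 was above that in AH47A for 12 and below it for 2. In 621 it was below that in 287 for 14 and above it for 0. Cdkn1a, the cell-cycle inhibitor p21, rose by log2 8.27, 6.58 and 5.34, most in AH47A. Summed B-lineage markers were 869 to 1920 CPM (counts scaled to TMM library size) in all libraries, and their median sum was lower under nutlin in each line, at 905 against 1184 CPM in AH47A, 1210 against 1620 in 287 and 1094 against 1590 in 621, where 6, 5 and 4 of the 7 markers fell (edgeR). Summed T-cell markers were at most 0.887 CPM, with Cd4 at 0 in every library. A list of 6 myeloid markers rose with nutlin in median sum from 4.35 to 12.5 CPM in AH47A, from 15.3 to 40.8 in 287 and from 1.75 to 8.86 in 621, most of it Itgam. A list of 5 plasmacytoid dendritic cell markers rose from 2.51 to 9.71, from 2.74 to 45.9 and from 1.79 to 16.1 CPM, most of it Cox6a2, with Siglech at 0 in all untreated libraries and in all treated libraries of AH47A and 621. These values move with the responses below, and their part in the result was not tested. In RNA from a whole culture, more responding cells and more RNA per cell cannot be told apart.

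**Figure D1:**
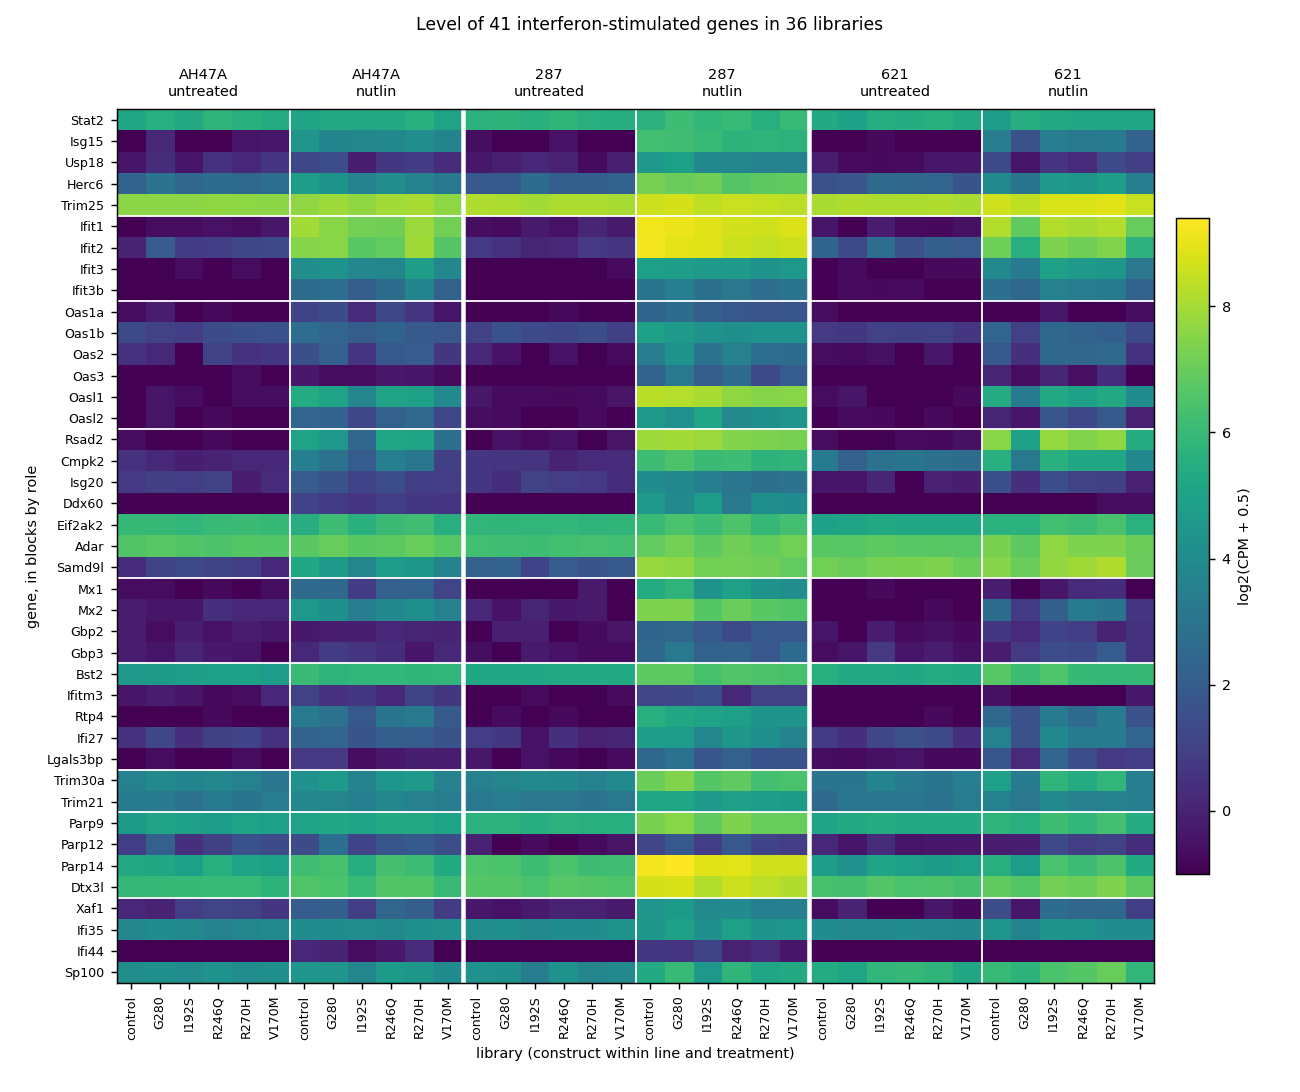
Level of each of the 41 genes (rows, grouped by role) in each of the 36 libraries (columns, by line, treatment and construct), as log2(CPM + 0.5). Most rows are dark in the untreated blocks and brighter in the nutlin blocks, and line 287 under nutlin is the brightest block.

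Nutlin raised the antiviral genes in all 3 lines and lowered none of the 40 tested by the edgeR quasi-likelihood test (adjusted p under 0.05 over 12321 genes). Summed over the 41 genes, line 287 went from 722 to 824 CPM in untreated libraries (median 787) to 3422 to 5033 CPM under nutlin (median 3948). In line 621 the untreated sums were 840 to 961 CPM (median 897) and the nutlin sums 1247 to 2526 CPM (median 2128). In line AH47A they were 600 to 654 CPM (median 623) and 987 to 1533.5 CPM (median 1335). The treated and untreated sums did not overlap in any line. Under nutlin, 39 to 41 members reached 1 CPM in the libraries of 287, 32 to 37 in those of AH47A and 27 to 35 in those of 621, whereas untreated libraries had 16 to 21.

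By member, 30 of 40 rose in AH47A, where 21.4% of all tested genes rose, 40 of 40 rose in 287, where 36.2% did, and 35 of 40 rose in 621, where 26.4% did. The median log2 response of the tested members was 1.52 in AH47A, 5.10 in 287 and 2.25 in 621, and that of all tested genes was within 0.03 of 0 in each line. The 3 medians were the same when members with 0 untreated counts were set to their lower bounds (Ifit3b and Ddx60 in AH47A, these and Oas3 in 287, and Oas3 in 621, where Ddx60 and Ifitm3 had none). All 6 treated libraries lay above all 6 untreated ones for 22 members in AH47A (10.2% of all tested genes did so), 38 in 287 (28%) and 20 in 621 (14.6%). Of the calls, 23 of 30 in AH47A, 37 of 40 in 287 and 31 of 35 in 621 stayed when each library or construct was left out in turn. Some of the calls that were lost belong to genes with almost no untreated counts, such as Ddx60 and Oas3, and these are given by their counts. Others belong to genes with more untreated counts, such as Isg20, Oas2, Xaf1 and Trim25 in AH47A and Stat2 in 287.

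**Figure D2:**
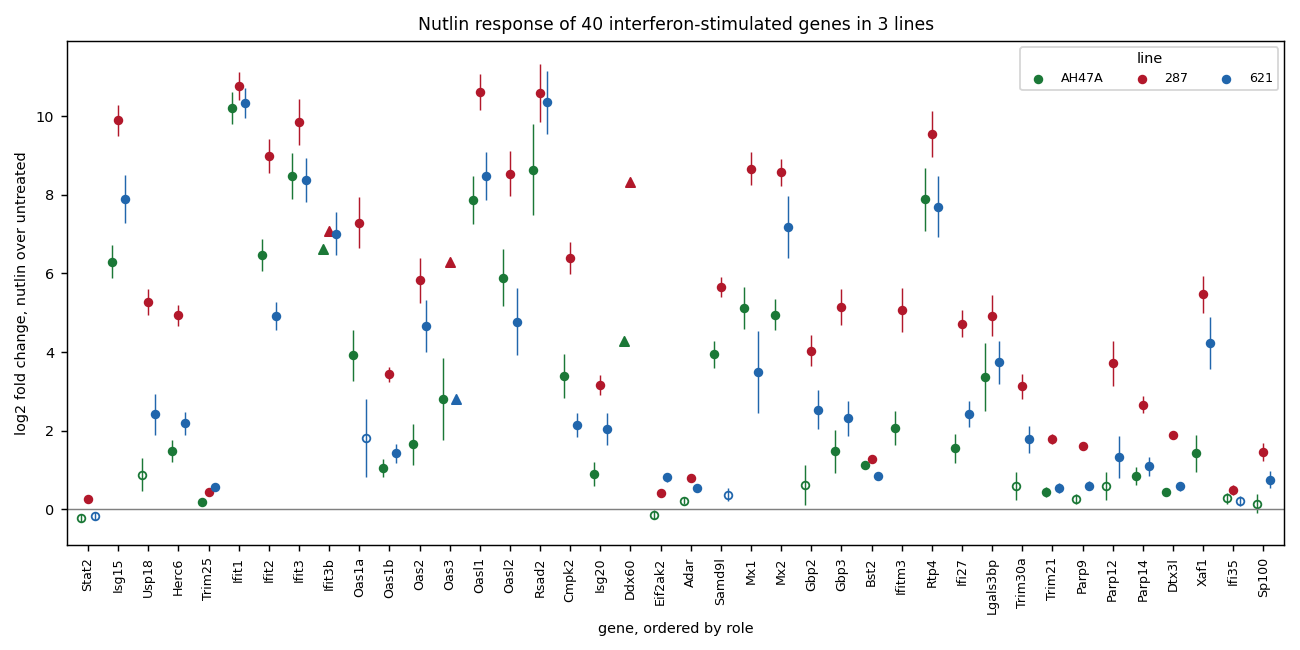
Log2 response to nutlin of the 40 tested genes in the 3 lines (mean of 6 constructs, bars 1 SE taken from the edgeR test statistic). The bars can be too short for genes with few untreated counts. Filled points passed adjusted p under 0.05, open points did not, triangles are lower bounds for genes with 0 untreated counts, and Ddx60 and Ifitm3 in line 621 are not drawn because they had 0 untreated and at most 3 treated counts.

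Among genes that carry or restrain the signal, Isg15, the ubiquitin-like protein that is attached to other proteins during the response, went from almost no reads to a high level. In line 287 it had 3 counts over the 6 untreated libraries and 3018 over the 6 treated, a ratio of 1074 (95% counting interval 367 to 5210), and treated levels were 50.3, 59.4 and 74.7 CPM (lowest, median, highest). In 621 it went from 1 count to 292, with treated levels of 2.45, 9.08 and 10.2 CPM. In AH47A untreated libraries lay between 0 and 0.656 CPM and treated ones at 12.3, 13.6 and 20.7 CPM. The groups were apart in all 3 lines, and the fitted log2 responses were 6.30 ± 0.41 (SE) in AH47A, 9.89 ± 0.40 in 287 and 7.89 ± 0.61 in 621 (edgeR adjusted p at most 8.2e-11). This SE is taken from the test statistic. With so few untreated counts it covers less than the counting error, as the counting interval in 287 shows. Herc6, the ligase that attaches ISG15 in mice, rose in all lines, from a median of 3.94 to 121 CPM in 287, from 5.71 to 14.3 in AH47A and from 3.80 to 18.3 in 621. Usp18, the protease that removes ISG15 and also restrains the interferon receptor, rose by log2 5.26 ± 0.33 in 287 and 2.41 ± 0.51 in 621. In AH47A its treated levels, 0.413 to 2.28 CPM, overlapped the untreated 0.255 to 1.06 CPM, and log2 0.89 ± 0.42 did not pass the test (edgeR adjusted p = 0.086).

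Stat2, a subunit of ISGF3 itself, was present before treatment and hardly moved. Its untreated levels were 43.7, 49.3 and 55.9 CPM in 287 and its treated levels 46.7, 61.4 and 70.6 CPM, which overlapped. The log2 response of 0.27 ± 0.10 passed the test in 287 (edgeR adjusted p = 0.016), but not when an untreated library of I192S, R270H or V170M or the treated V170M library of that line was left out. In AH47A and 621 the values were -0.21 ± 0.10 and -0.18 ± 0.10, with adjusted p of 0.10 and 0.16 by edgeR. Trim25, the ubiquitin ligase that acts on the RNA sensor RIG-I, was expressed at 191.9 to 283 CPM untreated, and rose by small amounts, log2 0.19 ± 0.06 in AH47A, 0.45 ± 0.06 in 287 and 0.58 ± 0.06 in 621. In AH47A its treated libraries, at 199 to 260 CPM, overlapped the untreated 191.9 to 206, and that call was lost without construct R246Q or R270H.

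The 4 IFIT genes, whose products bind foreign RNA ends and block translation, rose in every line and had the highest median response of the groups by role, log2 8.71 in AH47A, 9.58 in 287 and 7.70 in 621. Ifit1 had 0 to 5 counts in each of the 18 untreated libraries. Under nutlin its levels were 139, 170 and 248 CPM in AH47A, 402, 476 and 576 CPM in 287 and 116, 276 and 295 CPM in 621. All treated libraries lay far above all untreated ones. The log2 responses were 10.19 ± 0.41 in AH47A, 10.76 ± 0.35 in 287 and 10.32 ± 0.38 in 621 (edgeR adjusted p at most 1.5e-14), and the difference between lines did not pass the test (edgeR adjusted p = 0.95). The untreated counts are so low that this test has little power. 287 exceeded AH47A by log2 0.57 ± 1.84.

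Ifit2 had a measurable untreated level, 1.57 CPM at the median in AH47A, 0.944 in 287 and 3.67 in 621, and rose to medians of 150, 433 and 139 CPM. The groups did not overlap in any line, and the response was log2 6.47 ± 0.41, 8.99 ± 0.43 and 4.92 ± 0.36, and 621 differed from 287 by log2 -4.08 ± 0.74 (edgeR adjusted p = 0.00013). Ifit3 and Ifit3b are near-identical copies, so that reads may have been split between them or dropped. Ifit3 went from 2 to 805 summed counts in AH47A, from 1 to 1203 in 287 and from 3 to 714 in 621. Ifit3b went from 0 to 293 (at least 98.2-fold, against 3 counts over the untreated libraries), from 0 to 377 (at least 134-fold) and from 3 to 305. Both stood above every untreated library in all 3 lines.

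**Figure D3:**
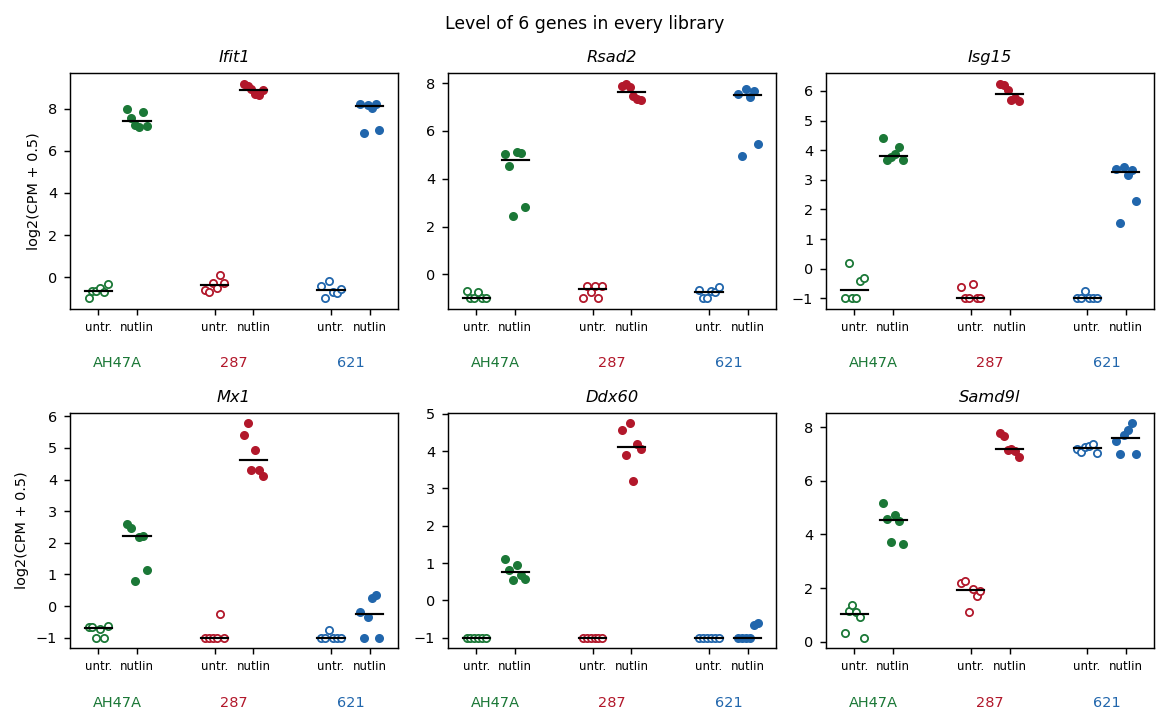
Levels of Ifit1, Rsad2, Isg15, Mx1, Ddx60 and Samd9l as log2(CPM + 0.5) in every library, by line, untreated (open, "untr.") and nutlin (filled), bars at the median of 6 constructs. Ifit1 rises from a very low level in all lines, Mx1 and Ddx60 stay at a very low level in line 621, and Samd9l is already high in untreated 621.

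The OAS family is named for enzymes that answer double-stranded RNA by making an oligoadenylate that activates RNase L, an activity that some mouse members lack. All 6 rose in AH47A and 287, with median log2 responses of 3.36 and 7.80, and 5 of 6 rose in 621, with a median of 4.72. Oasl1 restrains translation of IRF7 in mice. Its untreated levels were at most 0.304 CPM, and its treated levels were 13.3, 30.8 and 42.2 CPM in AH47A, 181, 237 and 323 CPM in 287 and 9.52, 34.3 and 41.8 CPM in 621. These groups were far apart in every line. Oasl2 went from 3 summed counts in each line to 173 in AH47A, 1080 in 287 and 65 in 621.

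Oas3, one of the enzymes, had 0 untreated counts in 287 and 221 treated counts (at least 78.6-fold), 0 and 15 in 621 (at least 7-fold), and 1 and 10 in AH47A. The fit called it in all 3 lines, and each of those calls was lost when 1 untreated library was left out. Oas2 rose by log2 5.83 ± 0.57 in 287 and 4.66 ± 0.67 in 621, to treated medians of 8.75 and 4.04 CPM. In AH47A, where treated libraries at 0.963 to 4.05 CPM overlapped untreated ones at 0 to 1.56 CPM, it rose by 1.65 ± 0.52, a call lost without the untreated I192S or control library. Oas1a, which has near-identical neighbours and is uncertain for that reason, went from 1 to 190 summed counts in 287 and from 1 to 3 in 621, where it did not pass. Oas1b had untreated medians of 2.06, 1.92 and 1.33 CPM in AH47A, 287 and 621, and treated medians of 4.13, 19.4 and 4.11 CPM, and rose in all 3 lines.

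Rsad2 encodes viperin, which makes a nucleotide that ends viral RNA chains, and Cmpk2, its genomic neighbour, encodes a nucleotide kinase that supplies it. Rsad2 was at most 0.223 CPM in every untreated library. Under nutlin it reached 4.95, 27.3 and 33.9 CPM in AH47A, 155, 201 and 249 CPM in 287 and 30.6, 179 and 215 CPM in 621. The treated libraries within AH47A and 621 spread widely, since I192S at 4.95 and V170M at 6.53 CPM stood below the other 4 in AH47A, and G280 at 30.6 and V170M at 43.1 CPM below the other 4 in 621. The log2 responses of 8.64 ± 1.15, 10.59 ± 0.74 and 10.35 ± 0.79 passed in all lines (edgeR adjusted p at most 4e-06). Cmpk2 rose from untreated medians of 0.621, 0.844 and 6.86 CPM to 7.45, 69.7 and 36 CPM, a log2 response of 3.40 ± 0.56 in AH47A, 6.40 ± 0.41 in 287 and 2.15 ± 0.31 in 621. It was higher in untreated 621 than in untreated AH47A by log2 3.41 ± 0.55.

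Ddx60, a helicase linked to RIG-I signalling, had 0 counts in all 18 untreated libraries. Under nutlin its counts per library were 7 to 16 in AH47A, 56 to 253 in 287 and 0 or 1 in 621. The summed counts were 58 in AH47A (at least 19.4-fold higher), 893 in 287 (at least 318-fold higher) and 2 in 621, which is within counting error of 0. The difference between lines could not be estimated by the fit because every untreated library was at 0.

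Samd9l, a restriction factor of poxviruses that halts translation, was the member whose untreated level differed most between lines. Untreated levels were 0.605, 1.53 and 2.05 CPM in AH47A, 1.65, 3.32 and 4.30 CPM in 287, and 131, 151 and 168 CPM in 621. Under nutlin they were 12.0, 22.8 and 36 CPM in AH47A, 119, 145 and 224 CPM in 287, and 129, 196 and 285 CPM in 621. Treatment thus separated the libraries completely in AH47A and 287, while in 621 the groups overlapped. Untreated 621 exceeded untreated AH47A by log2 6.74 ± 0.29 and untreated 287 by 5.53 ± 0.25 (edgeR adjusted p at most 1.3e-14). The response was log2 3.94 ± 0.35 in AH47A, 5.64 ± 0.25 in 287 and 0.38 ± 0.17 in 621, which did not pass (edgeR adjusted p = 0.068) but passed when construct G280, or its treated library of 621, was left out. The response of 621 was the lowest, and differed from that of 287 by log2 -5.27 ± 0.31 and from that of AH47A by -3.57 ± 0.40 (edgeR adjusted p at most 1.5e-06).

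The remaining members that act on nucleic acids are an exonuclease, a kinase and an editing enzyme. Isg20, the exonuclease, rose from medians of 1.26, 1.11 and 0.320 CPM to 2.0, 9.09 and 1.48 CPM. Eif2ak2, the kinase PKR, which stops translation on double-stranded RNA, was at 30.5 to 67.3 CPM untreated. It rose by log2 0.42 ± 0.11 in 287 and 0.81 ± 0.12 in 621 but not in AH47A, where the value was -0.13 ± 0.11 (edgeR adjusted p = 0.38). Adar, which edits double-stranded RNA and so keeps self RNA from being sensed, rose by 0.79 ± 0.10 in 287 and 0.56 ± 0.10 in 621, and its 0.22 ± 0.10 in AH47A did not pass (edgeR adjusted p = 0.066). The last value passed with library-size scaling, without the construct terms, and with several single libraries left out.

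The GTPases that trap viral particles or attack the membranes around pathogens rose in all lines, apart from Gbp2 in AH47A. Mx1 counts under nutlin were 54, 40, 9, 26, 30 and 14 in AH47A, 342, 450, 184, 193, 168 and 127 in 287, and 2, 0, 2, 4, 6 and 0 in 621, in the order control, G280, I192S, R246Q, R270H and V170M. Untreated libraries of 287 had 3 Mx1 counts in all and those of 621 had 1. The ratio was 521 in 287 (95% counting interval 178 to 2529) and 19.6 in 621 (2.98 to 829), so that the gene rose in 621 from almost nothing to a median of 0.333 CPM, with treated and untreated libraries overlapping. Mx2 rose to treated medians of 15.9 CPM in AH47A, 118 in 287 and 4.95 in 621 from untreated medians of 0.494, 0.329 and 0, with no overlap in any line. Gbp2 and Gbp3 stayed under 9 CPM throughout, and in 287 rose to treated medians of 3.17 and 4.84 CPM. Gbp2 in AH47A had overlapping groups, 0.131 to 0.410 CPM untreated and 0.309 to 0.628 treated, and log2 0.62 ± 0.52 did not pass. Gbp3 in AH47A rose by 1.47 ± 0.55, a call lost in several of the leave-outs.

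All 5 membrane and secreted members rose in each line. Bst2, or tetherin, which holds budding virus on the cell surface, was the member of this set with a steady untreated level. It went from 23.9, 26.4 and 29.7 CPM to 53.8, 57.6 and 67.1 CPM in AH47A, from 37.1, 38.7 and 41 to 81.8, 92.1 and 113 CPM in 287, and from 37.0, 40.1 and 44.8 to 59.7, 65.5 and 102 CPM in 621. The groups did not overlap, and the response was small and close between lines, log2 1.12 ± 0.09, 1.28 ± 0.08 and 0.86 ± 0.08. The value in 621 differed from that in 287 by log2 -0.42 ± 0.12 (edgeR adjusted p = 0.0044). Rtp4, a chaperone induced by interferon, went from 1 to 309 summed counts in AH47A, from 2 to 1496 in 287 and from 1 to 232 in 621. Ifitm3, which blocks entry of enveloped viruses, went from 2 to 80 counts in 287 and from 0 to 3 in 621. In 621 that is too few to tell from counting error, although the fit called it (log2 2.74 ± 1.08, edgeR adjusted p = 0.035) and DESeq2 did not. Ifi27 rose from medians of 1.18, 0.692 and 1.56 CPM to 3.77, 19.9 and 9.16 CPM, and Lgals3bp, a secreted glycoprotein, reached 0.393, 3.54 and 1.8 CPM from at most 0.304.

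TRIM, PARP and DTX3L members had the lowest responses among the groups, apart from the last 3 genes below. Trim30a, a mouse ubiquitin ligase, rose from a median of 13.3 to 108 CPM in 287 and from 8.63 to 35 CPM in 621. In AH47A its treated libraries, 11.7 to 23.9 CPM, overlapped the untreated 8.01 to 15.3 CPM, and log2 0.60 ± 0.35 did not pass. Trim21, a receptor for antibody inside cells, rose in all 3 lines, by log2 0.45 ± 0.13, 1.79 ± 0.12 and 0.55 ± 0.13. Parp9 and Dtx3l form a pair that modifies ubiquitin and histones, and both had substantial untreated levels. Dtx3l went from medians of 62.0, 97.4 and 84.3 CPM to 90.7, 357 and 125 CPM, and Parp9 from 29.0, 47.9 and 39.5 to 35.1, 142 and 56.7. Parp14 rose from 79.6 to 490 CPM in 287 at the median, by log2 2.67 ± 0.22, against 0.85 ± 0.24 in AH47A and 1.10 ± 0.25 in 621. Parp9 and Parp12 did not pass in AH47A. The median log2 response of these 4 PARP and DTX3L genes was 0.52 in AH47A, 2.28 in 287 and 0.85 in 621.

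Of the other members, Xaf1, which promotes cell death by opposing XIAP, rose by log2 5.46 ± 0.48 in 287 and 4.23 ± 0.65 in 621, from untreated medians of 0.333 and 0.113 CPM to 15.1 and 3.58 CPM. In AH47A it rose by 1.43 ± 0.47, and that call was lost without the control construct or the untreated control or G280 library. Sp100, a component of nuclear bodies that silence viral DNA, rose by 1.45 ± 0.23 in 287 and 0.76 ± 0.21 in 621 and did not pass in AH47A at 0.15 ± 0.24. Ifi35 passed only in 287, at 0.50 ± 0.13, with values of 0.28 ± 0.13 in AH47A and 0.22 ± 0.13 in 621. Ifi44 had 0 untreated counts in every line and under nutlin 18 counts in AH47A (at least 6.04-fold), 44 in 287 (at least 15.7-fold) and 0 in 621.

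The size of the response differed between lines, and line 287 was the highest. The p53 targets also had their highest median log2 response in 287, at 4.06, and their part in this order was not tested. The test over all 3 lines passed for 28 of 40 members, where 60.3% of all tested genes passed. Line 287 exceeded AH47A in 28 members (24.3% of all tested genes were higher) and fell below it in 0, and 20 of the 28 stayed called in every leave-out. Line 621 was below 287 in 16 members (21.5% of all tested genes were lower) and above it in 0. Line 621 exceeded AH47A in 4 members, Eif2ak2, Trim25, Oas2 and Xaf1 (15.8% were higher), and was below it in 1, Samd9l (15.8% were lower). In 287 against AH47A the differences reached log2 4.38 ± 0.60 for Usp18, 4.17 ± 0.86 for Oas2 and 4.03 ± 0.75 for Xaf1 (edgeR adjusted p at most 0.00028). Ifit1, Ifit3, Rsad2, Oasl1 and Rtp4 had at most 15 summed untreated counts in each line. For these members, standard errors of the difference were log2 1.62 to 6.16, so that the failure to pass says little about whether the lines differ.

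Before treatment the lines differed in 18 of 40 members, where 79.3% of all tested genes differed. Apart from Samd9l and Cmpk2, which were highest in 621, the members with a clear untreated difference included Parp14, whose untreated medians were 35 CPM in AH47A, 79.6 in 287 and 28.5 in 621, and Sp100, at 17.5, 16.4 and 47.6 CPM. Parp12 ran the other way, with 1.79 CPM in AH47A, 0.113 in 287 and 0.286 in 621. Lines that started higher did not respond alike. Line 621 had the highest untreated level of Samd9l and the lowest response, whereas line 287 had the highest untreated level of Parp14 and the highest response.

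Genes around the pathway were read from lists that were also chosen with earlier results of these data known. The interferons themselves were near silent before treatment: Ifna4, a type I interferon gene of a family with near-identical copies, had 0 counts in all 18 untreated libraries. Under nutlin the Ifna4 counts were 14, 8, 2, 7, 14 and 5 in AH47A, 79, 121, 194, 60, 85 and 91 in 287, and 3, 0, 2, 2, 2 and 3 in 621, in the order control, G280, I192S, R246Q, R270H and V170M. Ifnb1, or interferon beta, had 2 counts in all untreated libraries together and 110 counts in the treated libraries of 287, against 4 in AH47A and 0 in 621. Both interferon genes thus had their highest counts in 287. Both genes' calls in 287, and those of Ifna4 in the other 2 lines, were lost when 1 untreated library of the line was left out.

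Of 11 tested genes of the receptor and ISGF3 list, 1 rose and 2 fell in AH47A, 3 rose and 4 fell in 287, and 3 rose and 3 fell in 621. Of all 12321 tested genes, 2635 rose and 2736 fell in AH47A, 4465 and 4396 in 287, and 3254 and 3522 in 621. The shares of this list were near or below these. The same numbers over all genes apply to the lists that follow. Irf9 rose from medians of 8.10, 9.98 and 8.63 CPM to 19.5, 57.6 and 25.6 CPM, by log2 1.18 ± 0.24, 2.49 ± 0.22 and 1.60 ± 0.23, whereas Stat2 moved by at most log2 0.27. Ifnar1, a chain of the receptor, fell by 0.16 ± 0.06 on the log2 scale in AH47A, a call lost in most settings, and by 0.32 ± 0.06 in 287. It did not fall in 621, where its median was 47.7 CPM untreated and 51.4 CPM under nutlin. Among 9 tested interferon regulatory factors, 3 rose and 3 fell in AH47A, 5 and 3 in 287, and 4 and 3 in 621. Irf7, the factor that amplifies interferon genes, rose by log2 2.12 ± 0.52, 4.40 ± 0.49 and 4.23 ± 0.55.

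Among 16 tested sensors and adaptors, 5 rose and 3 fell in AH47A, 10 and 4 in 287, and 7 and 3 in 621. Ifih1 encodes MDA5, a cytosolic sensor of long double-stranded RNA. It rose from medians of 5.25, 1.49 and 0.158 CPM to 79.4, 337 and 14.3 CPM, by log2 3.80 ± 0.23, 7.63 ± 0.26 and 5.82 ± 0.49 (edgeR adjusted p at most 1.6e-09). Ddx58 encodes the related sensor RIG-I and rose by 2.75 ± 0.51, 4.09 ± 0.35 and 1.75 ± 0.32. Tmem173, which encodes STING, the adaptor for cytosolic DNA, rose by 0.26 ± 0.09 in AH47A, a call lost without construct R270H, and fell by 0.83 ± 0.08 in 287 and 0.60 ± 0.08 in 621. Among 48 other interferon-stimulated genes tested, 18 rose and 3 fell in AH47A, 43 and 3 in 287, and 27 and 1 in 621. Of all tested genes 21.4%, 36.2% and 26.4% rose in these lines.

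**Figure D4:**
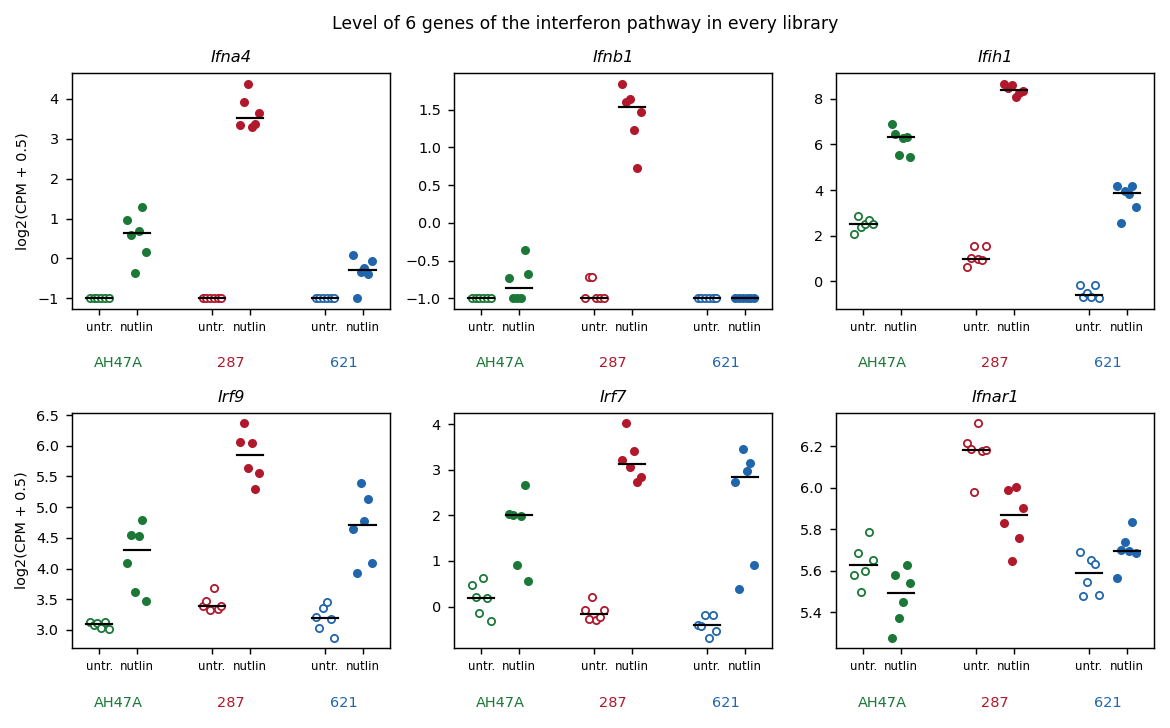
Levels of 6 pathway genes outside the 41 (Ifna4, Ifnb1, Ifih1, Irf9, Irf7 and Ifnar1) as log2(CPM + 0.5) in every library, by line, untreated (open, "untr.") and nutlin (filled), bars at the median of 6 constructs. Ifna4 and Ifnb1 are at or near 0 untreated and highest in treated line 287, and Ifnar1 moves by at most log2 0.32.

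With the negative control construct, nutlin raised 35 of the 40 members over the 3 lines, where 26.9% of all tested genes rose, with a median log2 response of 3.51. 15 of the 41 members had at most 3 counts in the 3 untreated control libraries together. Among these, Ifit3 had 0 untreated and 485 treated counts, a rise of at least 154-fold, Rtp4 had 0 and 484 (at least 153-fold) and Ddx60 0 and 206 (at least 65.3-fold). Ifit1 had 0, 1 and 2 untreated counts in AH47A, 287 and 621 and treated levels of 248, 576 and 293 CPM. These were well apart, and the response was log2 11.18 ± 0.56. Members expressed before treatment rose less, such as Herc6 by 3.63 and Bst2 by 1.41 ± 0.12. Stat2 at -0.22, Eif2ak2 at 0.12, Ifi35 at 0.34, Sp100 at 0.72 and Parp12 at 1.26 did not pass.

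Most members rose with each of the 5 mutants too. In G280 libraries 38 members rose (19.4% of all tested genes rose), in I192S 36 (20.7%), R246Q 39 (20.2%), R270H 38 (22.6%) and V170M 34 (15.2%), with median log2 responses of 3.33, 3.16, 3.24, 3.15 and 2.89. These counts rest on a model in which each line has its own response to nutlin. In the order control, G280, I192S, R246Q, R270H and V170M, the numbers were 35, 31, 30, 34, 35 and 20 with 1 response shared by the lines, 17, 9, 10, 8, 9 and 8 with line left out of the model altogether, and 26, 13, 23, 24, 27 and 10 without line 287. A limma fit of the 3 within-line differences of the control alone called 12.

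Between mutants and control, no difference of the response passed for any member (0 of 40, where 3.38% of all tested genes passed for the mean of the 5 mutants, and 2 members at an unadjusted p under 0.05 by edgeR). DESeq2 also called 0. Untreated, 0 members differed between the mean of the mutants and the control (0.0162% of all tested genes did), none of them at an unadjusted p under 0.05, and DESeq2 called 0 too. Under nutlin 8.76% of all tested genes were lower in the mean of the mutants. So were 3 members (7.5%), a share no higher than that of all genes. They were Bst2, with a log2 difference of -0.38 ± 0.09, Isg20, with -0.90 ± 0.25, and Oas1b, with -0.59 ± 0.19 (edgeR adjusted p 0.0031, 0.015 and 0.034). The count was 0 with 1 response shared by the lines or with line left out of the model. It was 1 to 8 when a line or library was left out.

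Among single mutants V170M had the most members below the control under nutlin. In V170M 10 members were lower than in the control and 0 higher (9.87% of all tested genes were lower), by 1 log2 unit or more for Mx1, Isg20, Cmpk2, Oasl1 and Mx2. Mx1 counts in treated V170M were 14, 127 and 0 in AH47A, 287 and 621, against 54, 342 and 2 in the treated control. They were lower in AH47A and 287, and too few in 621 to tell apart. The log2 difference was -1.46 ± 0.39 (edgeR adjusted p = 0.0096). Isg20 differed by -1.37 ± 0.36 (adjusted p = 0.0084), Bst2 by -0.47 ± 0.11 (0.0053) and Samd9l by -0.95 ± 0.26 (0.015), all by edgeR. Ifit1, at 146, 466 and 127 CPM against 248, 576 and 293, differed by -0.72 ± 0.24 (edgeR adjusted p = 0.040). None of the 10 calls held in every setting. The count was 0 with 1 response shared by the lines or with line left out of the model, 2 without AH47A, 1 without 287 and 13 without 621. The difference of the V170M response from that of the control passed for 0 members (3.65% of all tested genes passed; 3 members at an unadjusted p under 0.05).

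R246Q and R270H were each lower than the control under nutlin in 1 member, Bst2. This is 2.5% of members, near the 2.78% and 1.67% of all tested genes that were lower. G280 and I192S differed from the control in 0 members (10.5% and 2.66% of all tested genes differed either way). At an unadjusted p under 0.05 by edgeR, 7 and 4 members differed. V170M lay below the control in all 3 lines for 29 of 40 members (23.2% of all tested genes did), against 12 for G280 (22.7%), 7 for I192S (16.4%), 11 for R246Q (21.5%) and 9 for R270H (17.6%). The other mutants' positions depended on the line. G280 had median log2 ratios to the control of -0.03 in AH47A, 0.10 in 287 and -0.75 in 621, and I192S had -0.64, -0.30 and 0.36. R270H had -0.07, -0.53 and 0.30, R246Q had -0.07, -0.33 and 0.14, and V170M had -0.69, -0.55 and -0.50. Only V170M had a median below 0 by at least 0.5 in each line. Each of these ratios compares 1 mutant library with 1 control library, and all mutants share the control library of a line. Members tended to move together in a library. R270H was below the control in 39 of 40 members in 287 and in 12 in 621. The 29 members below the control in V170M therefore rest on 3 pairs of libraries and are not independent observations. Trp53 RNA under nutlin was also highest in V170M in 287, at 2023 CPM against 799 to 1320 in the other mutants. In 621 it was 1277 against 446 to 798 CPM, and in AH47A 780 against 727 to 871 CPM. The Trp53 level and the mutation of V170M cannot be told apart here. Of the 20 p53 targets, 19 were lower under nutlin in V170M than in the control, 18 in G280, 13 in I192S, 13 in R246Q and 8 in R270H. Of all 12321 tested genes, 1216, 629, 185, 343 and 206 were lower in the same order. The part of the p53 targets in the result was not tested.

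**Figure D5:**
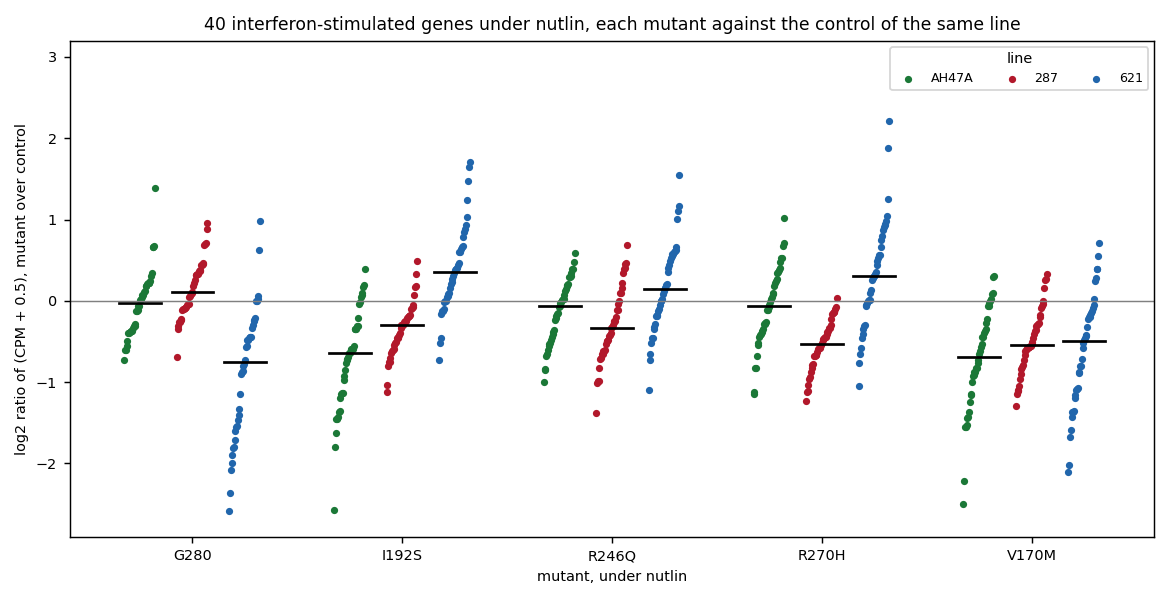
Log2 ratio of (CPM + 0.5) between each mutant and the negative control of the same line, both under nutlin, for the 40 tested genes (points, sorted within each column), by line, bars at the median. The V170M medians lie below 0 in all 3 lines, while G280 lies lowest in 621 and I192S in AH47A.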

How the data were processed

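RNA was extracted with Trizol and RNeasy columns and sequenced on an Illumina instrument, per the labels' protocols. The deposited values are raw counts of reads per gene, made by the authors with bcl2fastq 1.8.4 and featureCounts on mm10 (GRCm38), per the submitters' processing notes. Aligner, annotation and strandedness were not given in the sources used here, so that overlapping genes, antisense genes and near-identical copies are uncertain. Rows without a gene symbol held 0.303% of counts and were left in.

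Counts were fitted with edgeR 4.0.16 in R 4.3.3 (TMM scaling, filterByExpr with a minimum count of 10, robust quasi-likelihood). Of 27179 genes, 12321 were tested, which held 99.9% of counts. One model over all 36 libraries had a response per line and per construct (20 residual degrees of freedom). The response of a line is the mean of its 6 constructs, and that of a construct the mean of the 3 lines. Adjusted p is Benjamini-Hochberg over all tested genes with a threshold of 0.05, and SE is the log2 change over the root of F. For members with few untreated counts this SE can be smaller than the counting error, so that it overstates the precision of their responses. CPM are counts over TMM-scaled library size. Near 0 means at most 3 summed untreated counts, where the ratio of summed counts has an exact 95% binomial interval that covers counting error only, and 0 untreated counts were replaced by 3 over the group for a lower bound.

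The line served as the replicate within each group. Libraries of the same line deviated together from their group means (r 0.629 to 0.929 over 198 pairs), so that the line was kept in the model. The 432 pairs of different lines had r of -0.646 to -0.113. Deviations within a group of 3 cancel out, which by itself favours negative values between lines. Promoters came from RefSeq (GRCm38.p6), matched by symbol. Named genes are the 41 members, the listed pathway genes and markers the text gives, Cdkn1a and Trp53 as checks, and Isg15's promoter as stated. 1 gene of the lists is not reported here. The members and lists were chosen with earlier results of these data known. The scripts were tested on simulated counts. DESeq2 1.42.0 and limma 3.58.1, other scalings, no filter, other models and leave-outs were the alternatives. pandas 2.3.3 and scipy 1.17.1 under Python 3.11.15 made the tables.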

Additional observations from a re-analysis of the deposited data

Results flagged for a closer look

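The response to nutlin differed between the lines by a test of the difference itself, which is what singled out the following values. Over all 3 lines it differed for 28 of the 40 tested members, against 60.3% of all tested genes (edgeR, adjusted p under 0.05). Between 287 and AH47A it differed for 28 members, all with the higher response in 287, where 24.3% of all tested genes were higher. Between 621 and AH47A it differed for 5, of which Eif2ak2, Trim25, Oas2 and Xaf1 were higher in 621 and Samd9l lower, where 15.8% of all tested genes were higher and 15.8% lower. Between 621 and 287 it differed for 16, all lower in 621, where 21.5% of all tested genes were lower. Differences between the lines were thus common among all genes. Constructs stood in as replicates of a line in these tests, and each line is a single source of cells.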

How the results depend on the processing

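The responses by line held best, and the counts by construct depended on the model. Leaving out each construct or library in turn gave 25 to 33 members rising in AH47A, 37 to 40 in 287 and 32 to 37 in 621. It gave 25 to 29 members differing in response between lines and 14 to 20 untreated. For the constructs, each line or library was left out in turn. Rising by construct were 26 to 37 (control), 13 to 39 (G280), 23 to 37 (I192S), 24 to 39 (R246Q), 27 to 38 (R270H) and 10 to 35 (V170M), each lowest without line 287. The same leave-outs of lines and libraries gave 1 to 8 members differing between mutants and control under nutlin, 0 to 1 in response and 0 untreated. Without the replicate block (line and its own response, the pairing of the libraries), the numbers in that order were 17, 9, 10, 8, 9 and 8, and 0 differed between mutants and control under nutlin. For the responses by line the block is the construct, and leaving it out changed no count there. With only the libraries compared, 23 rose in line 621, and 24, 9, 15, 19, 23 and 9 in the same order of constructs, and 2 differed between mutants and control under nutlin. With fewer samples the spread is estimated less precisely. That setting gives no separate value for the response with mutants against control, which already used all libraries. With an additive model of line, 20 rose with V170M and 0 differed between mutants and control under nutlin, and limma over the 3 lines gave 12 for the control. The cause was not tested. No direction of a count turned. Depth limits the members near 0 untreated, whose fitted folds rest on few counts.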
